A study of Mus musculus with 6 samples.

Results

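Mouse chromosome 18 held 279 genes that met the membership rule, out of 472 genes on it with values and 18180 genes with values in all. The rule took every gene on the chromosome whose mean over the 6 libraries was at least 50 normalised reads, then set aside the protocadherins, the potassium channel genes and 15 other genes by name, which removed 29 of 308 expressed genes. Only that mean chose the genes, but the chromosome was picked with the fold changes of its genes already known. Counts and medians over the 279 genes are therefore descriptions and test nothing. The members ran from base 3266048 to base 90592522 (mm10 build); 275 were protein-coding.

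Bulk RNA was sequenced from tumour cells sorted out of orthotopic pancreatic ductal adenocarcinoma (PDAC), that is, tumours growing in the organ of origin, here in C57BL/6 mice, and collected after 10 to 14 days. The 2 groups of 3 libraries are titled KPC and KPSC, names the labels do not spell out. In the genotype field, libraries titled KPC are entered as Setd2 knockout and those titled KPSC as wild type, the reverse of what the S in KPSC would seem to stand for. The titles are used as group names here, so KPSC against KPC is a contrast of titles, not of a known Setd2 state. The labels name no sort marker, no Cre driver, and neither the cell line nor the number of animals behind a library, and p-values therefore reflect only how these libraries vary, which may be technical. Setd2 itself, on chromosome 9, stood at 1046 to 1338 normalised reads in KPC and at 859 to 1042 in KPSC (limma adjusted p = 0.148). A deletion of part of a gene can leave its total read number little altered, and the deleted part is not given.

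SETD2 adds the third methyl group to lysine 36 of histone H3 along transcribed genes. The genes of a chromosome have position in common rather than function. Mouse chromosome 18 carries stretches homologous to parts of several human chromosomes, 5, 10 and 18 among them. Its expressed genes range from Apc, the tumour suppressor that restrains Wnt signalling, to the invariant chain Cd74, histone-modifying subunits, splicing factors and mitochondrial enzymes. A shift that many of them show together is thus described along position first, then by role.

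Libraries held 14662710 to 17746969 reads over genes. Epithelial markers were present in every library, and 5 of 8 rose in KPSC. RNA of other cells differed within groups. The 12 acinar enzyme genes took 0.688% to 5.39% of reads in KPC and 13.3%, 6.69% and 0.281% in KPSC replicates 1, 2 and 3. A list of 8 skeletal muscle genes, drawn up after the data were seen, took 0.307% of reads in KPSC replicate 3 and at most 0.000485% in any other library. The summed level of 8 pan-leukocyte markers, none at 0 in all libraries, was 17442 to 21829 normalised reads in KPC and 12613 to 16006 in KPSC, and that of 8 antigen-presenting cell markers, again none at 0 in all libraries, was 35600 to 50175 and 14849 to 26094. Summed fibroblast markers stood at 139778 to 161333 in KPC and 110500 to 218762 in KPSC, and endothelial markers at 2405 to 3563 and 2591 to 3999. The part of these markers in the results on chromosome 18 was not tested.

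The expressed genes of chromosome 18 were lower in KPSC along nearly the whole chromosome. Their reads made up 2.28% to 2.55% of all reads in the KPC libraries. In KPSC replicate 2 the share was 1.66%, in replicate 3 it was 1.96%, and replicate 1, with the most acinar RNA, had the lowest. Every KPSC library lay below every KPC library; a share of reads depends on the other RNA in the library, too. On the log2(value + 1) scale, fitted per gene, the median difference of KPSC from KPC was -0.36 over the 278 members tested, a ratio of 0.778, beside 0.02 over the 11912 other genes with a mean of at least 50. In bulk RNA, fewer cells of a type and less RNA per cell cannot be told apart. These are not the only possible sources of such a difference, and none was tested.

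Of the 278 members, 88 fell and 10 rose (limma, Benjamini-Hochberg adjusted p under 0.05 over all 16737 genes tested). Across all genes tested 6.76% were called lower and 7.61% higher, and among other genes with a mean of at least 50 the shares were 7.7% and 9.49%, against 31.7% and 3.60% of members. Because the chromosome was picked on this contrast, nothing is read from that gap. Most of the change was modest: 75 of the 88 lower calls lay between -1 and -0.3, 13 lay at or below -1, and the median lower call was -0.56. Of the 180 members that did not pass, 144 had a fitted difference below 0, and their median was -0.25. The groups did not overlap, with KPSC lower, for 155 members (55.8%), beside 17.2% of all genes tested and 18% of other genes with a mean of at least 50. They did not overlap with KPSC higher for 17 of 278 members, a smaller share than the 2942 of 16737 genes tested (17.6%). For each gene whose groups do not overlap, the exact two-sided permutation test gave p = 0.1, the smallest that 3 against 3 allow. The authors' deposited table called 109 members lower and 12 higher at its adjusted p under 0.05, with 7.65% of all genes lower and 8.56% higher, and 97 of the 98 calls made here are among them in the same direction.

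The count of calls depended on single libraries far more than the median did. Lower calls among members numbered 50, 37 and 55 without KPC replicates 1, 2 and 3, and 46, 36 and 108 without KPSC replicates 1, 2 and 3. Higher calls among members in the same order numbered 7, 7, 6, 5, 5 and 12. Calls over all genes moved likewise. Lower calls there numbered 578, 525, 534, 601, 578 and 1557 in the same order, against 1132 with all libraries. Higher calls there numbered 825, 789, 716, 698, 712 and 1494, against 1274. The member median stayed between -0.39 and -0.33. All 98 called members kept their sign in all 6 of these fits, with 27 lower and 4 higher calls past the threshold in all 6.

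**Figure D1:**
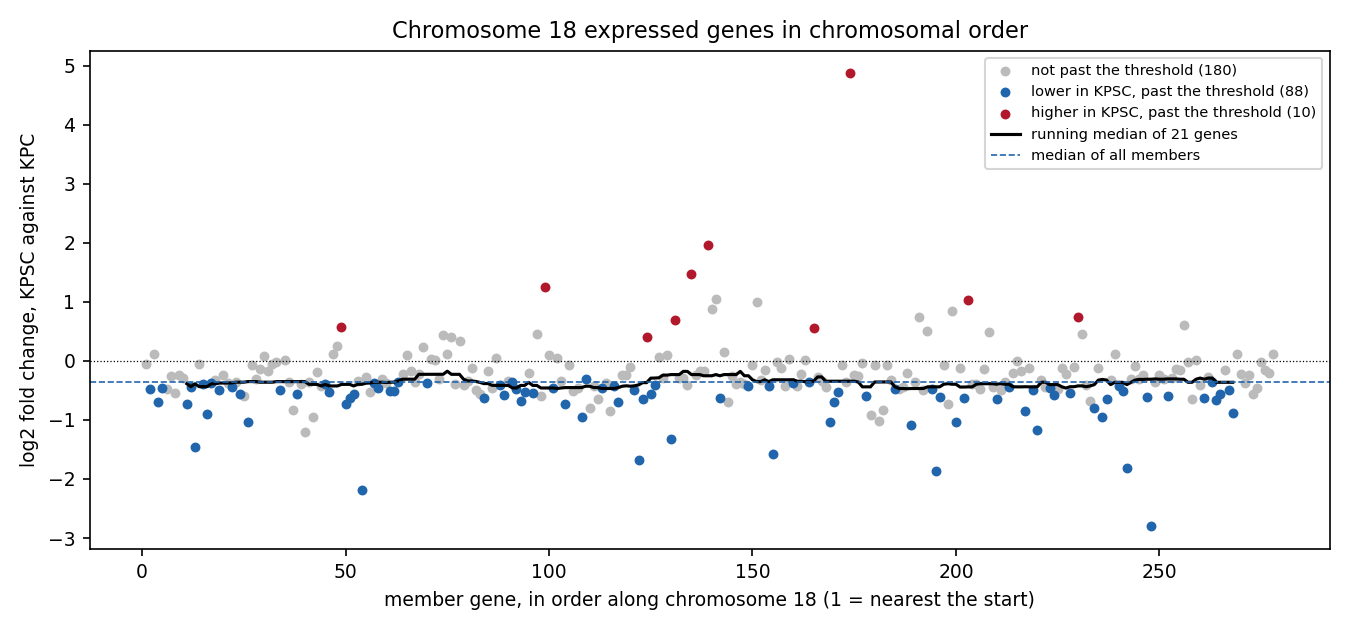
Each point is 1 of 278 expressed chromosome 18 genes, placed in chromosomal order on the x axis, with its log2 fold change of KPSC against KPC on the y axis; colours give the limma call, the solid line the running median of 21 genes and the dashed line the median of -0.36. The running median lies below 0 along its whole length, while 46 single genes lie above 0.

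By position, in consecutive windows of 10 Mb, counted from base 1, the 9 windows with at least 10 members had medians from -0.44 (60 to 70 Mb, 53 members) to -0.23 (40 to 50 Mb, 27 members). Over all members 31.7% were lower and 3.60% higher, beside 6.76% and 7.61% of all genes tested. The first window, up to 10 Mb, had a median of -0.41, with 10 of 20 members lower and none higher. Between 30 and 40 Mb, where 75 members lie, 26 fell and 3 rose with a median of -0.36. From 80 to 90 Mb, 6 of 18 fell and none rose (median -0.37). Windows of 5 Mb spread more widely: the 13 with at least 10 members had medians from -0.47 (20 to 25 Mb) to -0.18 (40 to 45 Mb). At 40 to 45 Mb, 7 of 12 members lay below 0, with 1 lower and 2 higher calls. The 2 members at 85 to 90 Mb had a median of -0.09. The 2 members beyond 90 Mb had a median of -0.04, too few to describe a region. One of them, Tmx3, a disulfide isomerase of the endoplasmic reticulum, stood at 1617, 1603 and 1282 normalised reads in KPC and at 1259, 1278 and 1366 in KPSC, so its groups overlapped (-0.20, limma adjusted p = 0.294).

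The shift was present in each KPSC library taken alone. Set against the KPC mean of each gene, the median member stood at -0.34, -0.41 and -0.32 on the log2 scale in the 3 KPSC libraries, in order of replicate. The KPC libraries stood at 0.04, 0.03 and -0.07. Members below the KPC mean numbered 227, 238 and 219 of 278 in the KPSC libraries. In the KPC libraries themselves they numbered 117, 109 and 188 of 278, so replicate 3 also had most members below that mean. The other expressed genes had medians of 0.03, 0.02 and 0.02 in the KPSC libraries. In all 9 windows every KPSC library had a lower median than every KPC library. The medians of -0.34 and -0.32 belong to the KPSC libraries with the most and the least acinar RNA, at 13.3% and 0.281% of reads. The latter library also held the muscle RNA. The part of acinar or muscle RNA in these medians was not tested.

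**Figure D2:**
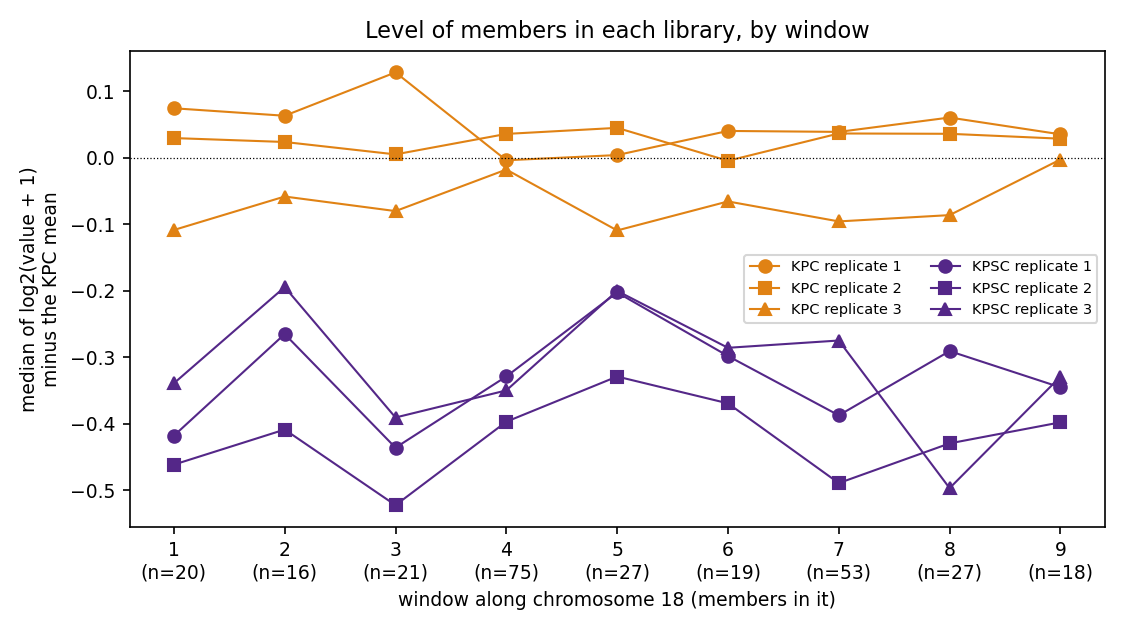
For 9 windows of 10 Mb along chromosome 18 (x axis, with the number of members), each line gives 1 library's median of log2(value + 1) minus the KPC mean of each gene (y axis). The 3 KPSC lines lie below the 3 KPC lines in every window, from -0.19 down to -0.52 against -0.11 up to 0.13.

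With 232 of 278 members below 0 in all, the longest unbroken run of such genes held 26, from Map3k8 at base 4331327 to Npc1, which ends at base 12236400. Genes of short, middle and long exonic length (up to 2884, 5181 and 27382 bases) had medians of -0.34, -0.36 and -0.37. Split by mean level into low, middle and high groups of like size, members had -0.35, -0.38 and -0.36, with 16, 36 and 36 lower calls. The strands were alike, at -0.37 on plus and -0.35 on minus. The 94 members whose exons overlap another annotated gene had a median of -0.37 and the 184 others -0.36; since the strand setting of the counting is not given, reads of overlapping genes cannot be told apart. Of the members 66.9% were within 0.3 of their median, beside 60.3% of other expressed genes around theirs. The other genes pool chromosomes of unlike median, such as -0.24 on chromosome 3 and 0.39 on chromosome 1, so these shares are not like for like. Quartiles were -0.52 and -0.13 for members. On single chromosomes they were narrower or wider, such as -0.14 and 0.18 on chromosome 4 and -0.20 and 0.35 on chromosome 2.

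Among 20 chromosomes (the autosomes and X), counting all genes with a mean of at least 50 and the named exceptions too, chromosome 18 had the lowest median, -0.36 over 307 genes with 103 lower and 14 higher. Over all genes with that mean, 8.24% were lower and 9.35% higher. Chromosomes 3 and 5 followed at -0.24 each, with 119 of 616 and 150 of 784 genes lower. Chromosome 1 had the highest, at 0.39. The differences between chromosomes were not tested.

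**Figure D3:**
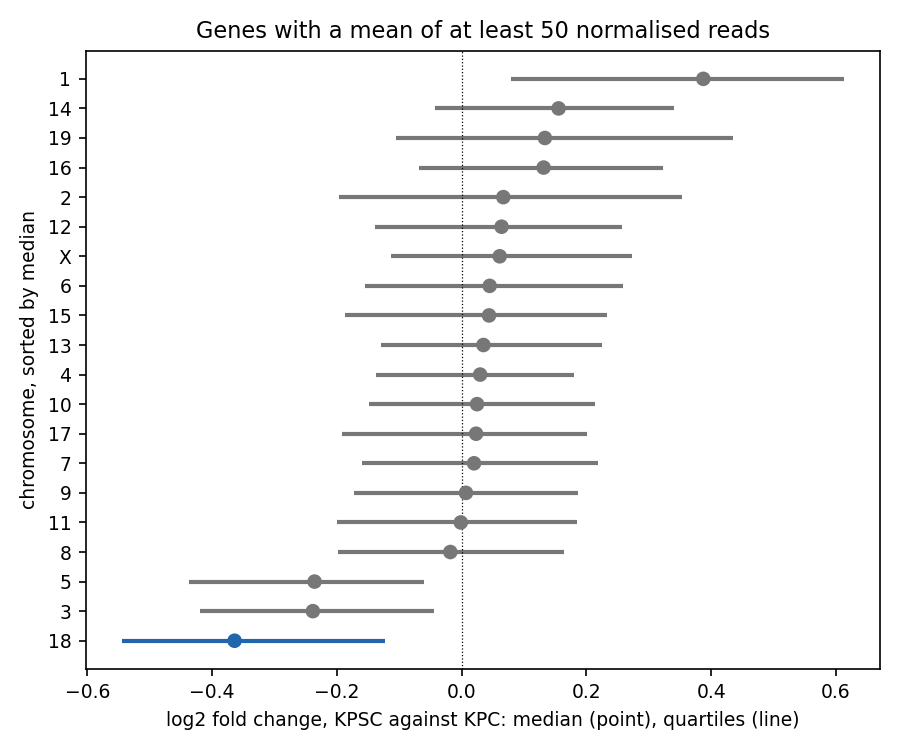
Median log2 fold change of KPSC against KPC (points, x axis) with quartiles (lines) for each of 20 chromosomes (y axis, sorted), over genes with a mean of at least 50 normalised reads. Chromosome 18, in blue, is at the bottom with -0.36.

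Just inside the threshold on the mean lay Rell2, with a mean of 51.9 normalised reads, and the Wnt receptor Fzd8, with 54.7. Just outside lay Ticam2, an adaptor of Toll-like receptors, with 48.1, and 1700086O06Rik with 46.7. Some members reached 50 in 1 group only. Group means in KPC and KPSC were 79.3 and 24.5 for Rell2, 71.6 and 37.9 for Fzd8 and 111.6 and 41.3 for Mkx. They were 98.6 and 49.1 for Ablim3, 11.0 and 342.8 for Megf10 and 49.7 and 143.8 for Sh3rf2. For such genes, membership and change are not separate. The 122 tested genes of the chromosome below the threshold had a median of -0.07 with 7 lower (5.74%) and 4 higher (3.28%). Protocadherins and potassium channel genes were not set aside from these 122, unlike from the members. Over all genes tested the shares were 6.76% and 7.61%. Of the 122 genes 52.5% lay below 0, beside 49.4% of all genes tested. Single reads weigh more at these levels. Neither the part of this in the smaller median nor that of the gene families kept in was tested.

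The 10 lowest members by fold, among calls whose groups do not overlap, fell by far more than the chromosome's median. Zbtb7c, a BTB zinc finger repressor (75820178 to 76148561), stood at 918, 722 and 669 normalised reads in KPC and at 94.2, 119.6 and 114.0 in KPSC. All 3 KPSC libraries lay far below the lowest KPC library. Its log2 fold change was -2.80 (SE 0.16, limma adjusted p = 0.000107).

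Fhod3, a formin that assembles actin filaments and is best known from heart muscle (24709445 to 25133500), stood at 684, 623 and 439 in KPC and at 94.2, 102.8 and 197.8 in KPSC. The KPSC library with the muscle RNA was the highest of its group and still below every KPC library (-2.19, SE 0.30, limma adjusted p = 0.0036). Myo5b, the myosin motor that carries recycling vesicles to the apical surface of epithelia (74440936 to 74771493), stood at 1003, 811 and 702 and at 302, 267 and 163 (-1.81, SE 0.24, limma adjusted p = 0.00324). Bvht, a long noncoding RNA known from heart development in the mouse (61639542 to 61647472), stood at 167, 289 and 212 and at 44.7, 60.3 and 76.9. Its log2 fold change was -1.86 (SE 0.28, limma adjusted p = 0.00528).

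Sema6a, a membrane-bound guidance molecule (47235598 to 47368870), stood at 471, 304 and 426 in KPC and at 117, 128 and 149 in KPSC, groups that lie far apart (-1.58, SE 0.19, limma adjusted p = 0.00238). The regulators of the cytoskeleton Arhgap26 (-1.32, limma adjusted p = 0.00133) and Spire1, an actin nucleator (-1.17, limma adjusted p = 0.00155), fell by more than 2-fold. Rell2 (-1.67, limma adjusted p = 0.00608) shares exons with Fchsd1 on the other strand, which fell too (-0.65, limma adjusted p = 0.0258; called in 2 of the 6 fits without 1 library). Mkx, a homeobox gene of tendon, had -1.45 (limma adjusted p = 0.0118); leaving out KPC replicate 3 took it over the threshold (adjusted p = 0.0527).

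Cd74 was the member with the most reads, also per kilobase. The invariant chain it encodes guides MHC class II molecules in antigen-presenting cells. It stood at 34057, 29800 and 44706 normalised reads in KPC and at 12774, 15714 and 23559 in KPSC (60803848 to 60812646). The groups did not overlap, but both were broad (-1.09, SE 0.28, limma adjusted p = 0.0408). The call was lost without KPC replicates 1, 2 and 3 (adjusted p = 0.0961, 0.071 and 0.124) and without KPSC replicates 1 and 2 (0.127 and 0.137). Antigen-presenting cell markers on other chromosomes lay lower in the same libraries (3 of 8 called, median -0.87); their part in the Cd74 difference was not tested.

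Against the direction of the chromosome, 10 members rose. Megf10, a receptor for engulfing apoptotic cells (57133090 to 57297467), stood at 13.6, 11.8 and 7.55 normalised reads in KPC and at 318, 396 and 315 in KPSC. The groups were separated by more than an order of magnitude (4.87, SE 0.28, limma adjusted p = 0.000106). Dpysl3, a regulator of microtubules and actin first known from growing neurons (43320979 to 43438286), stood at 1354, 1627 and 1180 and at 5208, 4919 and 5949. It was high in all 3 KPSC libraries (1.96, SE 0.14, limma adjusted p = 0.000232). Piezo2, a mechanically gated ion channel (63010213 to 63387183), stood at 422, 346 and 329 and at 679, 792 and 776 (1.04, SE 0.13, limma adjusted p = 0.00242).

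The other 7 had weaker calls. Ppic, the secreted-pathway prolyl isomerase cyclophilin C, rose by 0.56 (limma adjusted p = 0.00893) and kept its call without any 1 library. Fgf1, a fibroblast growth factor, stood at 338, 329 and 374 and at 582, 635 and 484 (0.70, limma adjusted p = 0.0123). It narrowly missed the threshold when replicate 2 of KPC (adjusted p = 0.0511) or of KPSC (0.0502) was left out. 1700066B19Rik (1.25) was lost without KPSC replicate 1 (adjusted p = 0.0579) and overlaps Ecscr on the other strand. Sh3rf2 (1.47), with 112, 97.2 and 222 in KPSC, kept its call only when KPSC replicate 3 was left out (adjusted p = 0.0578 to 0.121 without each of the others). Arap3 (0.41) was lost without KPC replicates 2 and 3 and KPSC replicates 1 and 2 (adjusted p = 0.096 to 0.112). Ccdc68 (0.75) was lost without KPC replicates 1 and 3 and KPSC replicates 1 and 2 (adjusted p = 0.0971 to 0.135), and 2700062C07Rik (0.58) without any of the 6 (adjusted p = 0.0654 to 0.118). When libraries were scaled to their total reads alone, which put the median of all genes with a mean of at least 50 at -0.18, only Megf10, Dpysl3 and Piezo2 were still called higher.

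**Figure D4:**
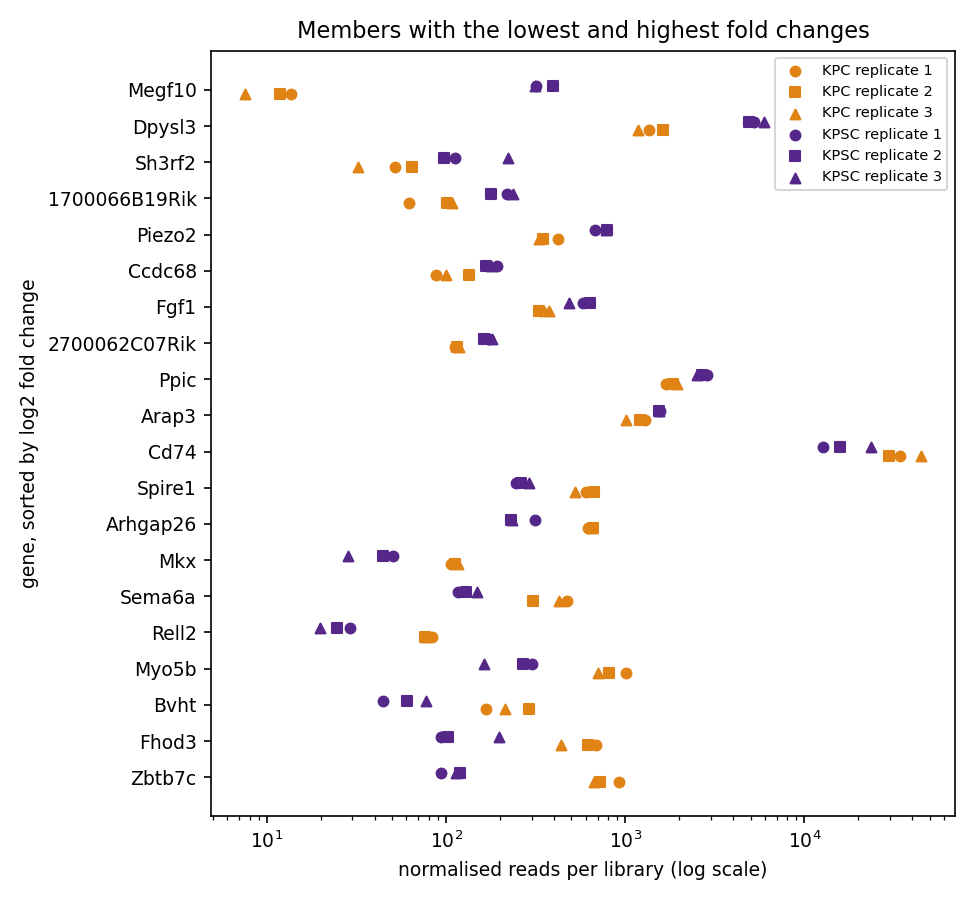
Normalised reads in each library (x axis, log scale) for the 10 lowest and 10 highest members by fold, taken from calls without overlap between groups (y axis, sorted). KPC libraries are orange and KPSC libraries purple; Megf10 and Zbtb7c show the widest gaps.

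By role, 186 of the tested members fell into 12 lists, and the median was below 0 in each, from -0.56 to -0.12; the 92 members in no list had -0.35. A gene may stand in more than 1 list, as Ptpn2 and Malt1 do under signalling and immune. Each list had more lower than higher calls. The members as a whole had 88 lower and 10 higher calls, with 232 of 278 below 0. Lists drawn from them would mostly lean lower whatever the roles, so nothing is read from this about roles. Beside the counts by role that follow, 31.7% of all members were lower and 3.60% higher. Over all genes tested the shares were 6.76% and 7.61%. The subunits and enzymes of transcription and chromatin had a median of -0.49, with 14 of 23 lower and none higher. Epc1, a scaffold of the NuA4 histone acetyltransferase (6435951 to 6516108), stood at 809, 905 and 748 in KPC and at 464, 475 and 535 in KPSC (-0.74, SE 0.11, limma adjusted p = 0.00528). Elp2, a subunit of the Elongator complex (24603961 to 24638830), stood at 2217, 2410 and 2290 and at 1566, 1553 and 1570 (-0.56, SE 0.08, limma adjusted p = 0.00454). Within each group these genes varied little between libraries, and the groups stood apart. Brd8, another NuA4 subunit (-0.63), the histone demethylase Kdm3b (-0.58), the deacetylase Hdac3 (-0.49) and the BAF subunit Ss18 (-0.50) fell as well. Brd8 kept its call without any 1 library, Kdm3b in 4 and Hdac3 in 3 of the 6 fits, and Ss18 was lost without KPSC replicate 2 (adjusted p = 0.0505). Lower calls in this list numbered 5 to 15 on leaving out each library.

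Of 18 DNA-binding transcription factors, 6 fell and none rose (median -0.40). Besides Zbtb7c and Mkx these included Nfatc1, the calcineurin-activated factor of lymphocytes and other cells (80606205 to 80713071), at 1289, 1215 and 1180 in KPC and 694, 759 and 873 in KPSC. The groups did not overlap (-0.67, SE 0.11, limma adjusted p = 0.00685). Smad2, a transducer of TGF-beta signals, had -0.36 and did not pass (limma adjusted p = 0.0731). On leaving out each library 4 to 11 of these genes were lower.

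All 17 genes of mRNA splicing, capping and turnover had a difference below 0, and 9 fell (median -0.42). Mex3c, an RNA-binding ubiquitin ligase (73573044 to 73592575), stood at 3467, 2856 and 2370 and at 1478, 1364 and 1625 (-0.95, SE 0.15, limma adjusted p = 0.00608). Rnmt, which methylates the mRNA cap (68300355 to 68324852), stood at 1092, 1144 and 937 and at 714, 732 and 713 (-0.55, SE 0.10, limma adjusted p = 0.0113). Without 1 library the number of lower genes was 3 to 9.

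All 12 genes of translation lay below 0, but only 3 fell (median -0.32; 0 to 4 without 1 library). Paip2, an inhibitor of poly(A)-binding protein, had -0.55 (limma adjusted p = 0.0176), lost without KPC replicates 2 and 3 and KPSC replicate 2 (adjusted p = 0.0689, 0.0661 and 0.0525). The histidyl-tRNA synthetase Hars had -0.42 (limma adjusted p = 0.0241), lost without the same libraries (0.0909, 0.0696 and 0.0774). Its exons overlap those of its mitochondrial counterpart Hars2 on the other strand, which fell by 0.70 (limma adjusted p = 0.00275). The ribosomal protein gene Rps14, second in reads among members, stood at 15768, 24884 and 25202 in KPC and at 24038, 20168 and 13199 in KPSC. Its groups overlapped widely (-0.21, limma adjusted p = 0.696). Ribosomal protein genes have near-identical processed copies in the genome, so how their reads were assigned is uncertain.

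Of 20 genes of mitochondria and metabolism, 8 fell and none rose (median -0.42; 2 to 7 lower without 1 library). Impa2, an inositol monophosphatase (67289253 to 67319146), stood at 600, 764 and 653 and at 349, 356 and 408 (-0.85, SE 0.13, limma adjusted p = 0.00489). Rbfa, a ribosome-assembly factor of mitochondria, had -0.63 (limma adjusted p = 0.00734) and the mitochondrial chaperone Hspa9 -0.48 (limma adjusted p = 0.0382; called in 1 of the 6 fits without 1 library). Atp5a1, a core subunit of the ATP synthase, had -0.16 (limma adjusted p = 0.461).

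Of 26 genes of vesicle traffic and lipid transport, 7 fell and none rose (median -0.31; 2 to 6 lower without 1 library), Myo5b and the flippase Atp9b (-0.55, limma adjusted p = 0.00888) with the smallest p. Of 17 genes of the cytoskeleton, junctions and polarity, 4 fell and 1 rose (median -0.24; 3 or 4 lower without 1 library), and all 5 changed by more than 2-fold: Fhod3, Arhgap26, Spire1 and Ablim3 lower and Dpysl3 higher. The Ablim3 call (limma adjusted p = 0.0475) held in 1 of the 6 fits without 1 library. Diaph1, a formin like Fhod3, stood at 2101, 2160 and 2093 in KPC and at 1976, 1887 and 2092 in KPSC (-0.09, limma adjusted p = 0.515). Apc, listed here for its role at microtubules, stood at 1602, 1277 and 1128 and at 950, 958 and 1072. Its groups did not overlap, but it did not pass (-0.41, SE 0.14, limma adjusted p = 0.0854).

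Of 17 signalling genes, 6 fell and 1, Fgf1, rose (median -0.12; 2 to 7 lower without 1 library). Besides Sema6a, the SUMO ligase Pias2 (77065208 to 77155708) fell, from 1338, 1076 and 1147 to 775, 829 and 748 (-0.59, SE 0.11, limma adjusted p = 0.0108). Csnk1a1, the casein kinase that primes beta-catenin for destruction, fell by 0.47 on the log2 scale (limma adjusted p = 0.0226; called in 2 of the 6 fits without 1 library). Of 10 ubiquitin ligases and adaptors, all lay below 0 and 4 fell (median -0.44; 1 to 7 lower without 1 library), with Fbxo38 (-0.63, limma adjusted p = 0.00668) and Ube2d2a (-0.46, limma adjusted p = 0.0115; 0.0526 without KPSC replicate 2) of smallest p.

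Of 17 genes of cell division and DNA maintenance, 3 fell and none rose (median -0.27; 1 to 5 without 1 library). They were the nuclear pore protein Seh1l (-0.58, limma adjusted p = 0.00893), the cohesin acetyltransferase Esco1 (-0.44, limma adjusted p = 0.0410; called in 1 of the 6 fits without 1 library) and the DNA polymerase Poli (-0.80, limma adjusted p = 0.0239), the last lost without KPC replicates 1 and 3 and KPSC replicates 1 and 2 (adjusted p = 0.0602 to 0.0783). The mitotic genes Cdc25c (0.06, limma adjusted p = 0.868) and Kif20a (-0.17, limma adjusted p = 0.583) did not pass. Of 9 matrix, secreted and sugar-modifying genes, B4galt6, which makes lactosylceramide, fell (-0.57, limma adjusted p = 0.0186), lost without KPC replicate 3 and KPSC replicates 1 and 2 (adjusted p = 0.059 to 0.0752). Lox, the enzyme that cross-links collagen, stood at 1750, 2554 and 1487 in KPC and at 1188, 1381 and 2542 in KPSC (-0.22, limma adjusted p = 0.686). Of 4 immune genes 3 fell (0 to 3 without 1 library): Cd74, Malt1 (-0.65, limma adjusted p = 0.0498, called in 1 of the 6 fits without 1 library) and the phosphatase Ptpn2 (-0.46, limma adjusted p = 0.039), the last lost without KPC replicates 2 and 3 and KPSC replicates 1 and 2 (adjusted p = 0.0818 to 0.128). The remaining gene had 0.61 and was not called. The median of this list, -0.56, rests on 4 tested members of 10 genes listed.

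**Figure D5:**
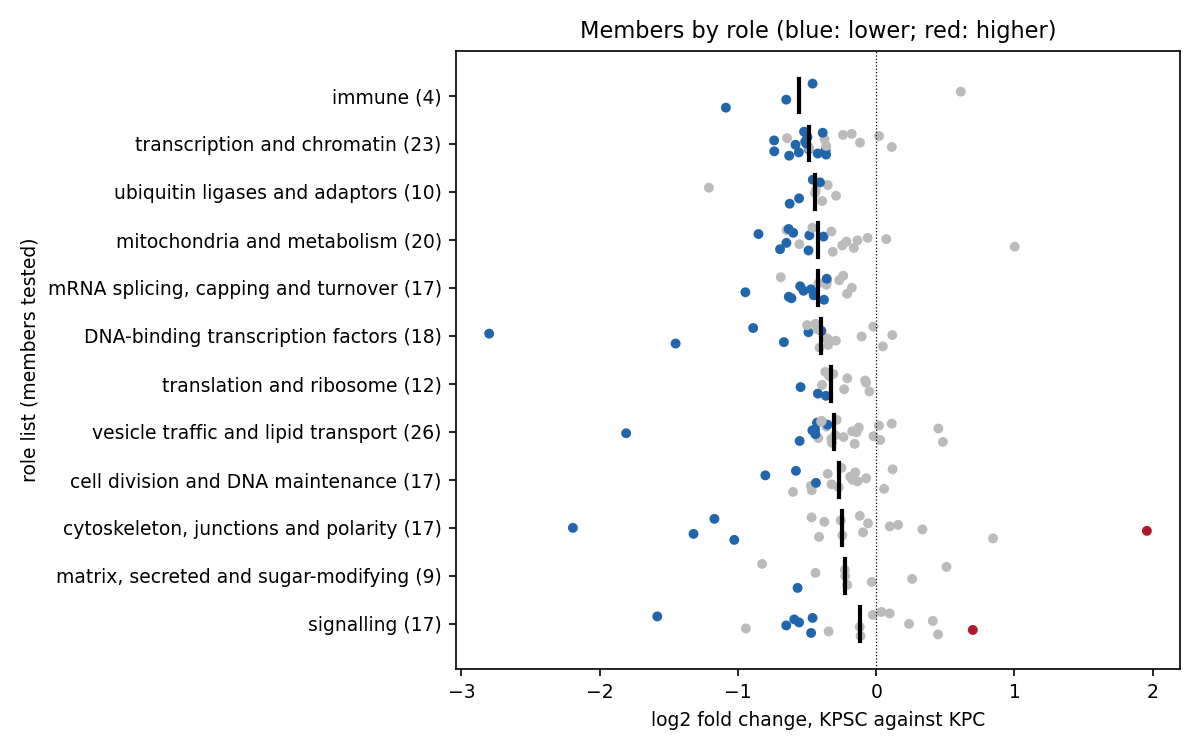
Log2 fold change of KPSC against KPC (x axis) for the tested members of 12 role lists (y axis, with their number), 1 point a gene, coloured by the limma call, with a black bar at each list's median. All 12 bars lie below 0, between -0.56 and -0.12, in a set of members that mostly lie below 0.

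A few members with wide spread within groups are named here because of their values. Spink1, the trypsin inhibitor of acinar cells, stood at 636, 363 and 3116 normalised reads in KPC and at 11580, 5432 and 101 in KPSC, in the same order of libraries as the acinar share of reads. Its fold of 1.05 had an SE of 1.66. Myot, a protein of the muscle Z-disc, had 0 reads in 5 libraries and 575 normalised reads in KPSC replicate 3, the library with the muscle RNA. It passed the mean of 50 through that library alone and was the only member left untested by the filter on low values. The interferon-inducible GTPase gene Iigp1 stood at 3306, 1981 and 2759 in KPC and at 786, 1230 and 3365 in KPSC. KPSC replicate 3 was the highest of all 6 and the other KPSC libraries the lowest (-0.82, SE 0.48, limma adjusted p = 0.305). Its neighbour Gm4951 stood at 267, 174 and 218 and at 77.3, 91.6 and 208, likewise with KPSC replicate 3 apart from its group (-0.92, limma adjusted p = 0.141).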

How the data were processed

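The deposited table gives, per gene and library, a signal that behaves as reads scaled by 1 factor for each library: 100.0% of values were whole multiples of 1 read within 0.01. The submitters' processing notes name mm10 and CASAVA 1.7; the sources used here give no aligner, counter, annotation or strand setting. Start, end and other values such as gene length are in bases, as deposited by the authors. The authors' deposited p-values and adjusted p-values are quoted only as the authors' table. Of 25450 rows, 7265 had no values, and 5 whose symbols had lost letters were left out; 18175 IDs matched GENCODE M21.

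limma 3.58.1 (R 4.3.3, eBayes with a mean-variance trend) was fitted on log2(value + 1) for the genes that reached 1 in 3 or more libraries, and p-values were adjusted by Benjamini-Hochberg. The pseudocount understates changes of low genes. edgeR 4.0.16, DESeq2 1.42.0 and limma-voom were run on the recovered reads; filters, pseudocounts, scalings, a replicate block and each library were varied. The limma and edgeR fits were also run on counts simulated at a common dispersion. Those counts lack the differences in acinar and muscle RNA within groups, so nothing is read from them about these libraries.

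Members, role lists and alternatives were chosen with earlier results of these data known. Genes were named by rule: the 10 highest and 10 lowest called, non-overlapping members; per role list and direction the calls with the smallest adjusted p, at most 2; the gene of smallest adjusted p per 10 Mb window; the members at the threshold and of highest mean; and Setd2. Other genes are named as list examples or for their values, picked after their values were seen. Tables used Python 3.11.15, pandas 2.3.3 and matplotlib 3.10.9.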

Additional observations from a re-analysis of the deposited data

How the results depend on the processing

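The median of the chromosome 18 members kept its direction under every alternative run: it stayed between -0.39 and -0.33 except with scaling to library totals alone, where it was -0.55 and the median of all genes with a mean of at least 50 was -0.18, a gap of -0.38 as in the reported fit. Lower and higher calls among members numbered 99 and 10 with edgeR, 116 and 12 with DESeq2 and 82 and 8 with limma-voom, beside 1183 and 1291, 1477 and 1611, and 1059 and 1190 over all genes. With library totals they numbered 60 and 3 (all genes: 892 lower and 380 higher, against 1132 and 1274), without the variance trend 39 and 7 (all genes: 718 and 825). On leaving out each library, lower calls among members ranged from 36 to 108 and higher calls from 5 to 12, with 525 to 1557 lower and 698 to 1494 higher over all genes, and the median from -0.39 to -0.33. Members at a mean of at least 20 gave 92 lower calls of 299 (30.8%), and those at a mean of at least 100 gave 84 of 246 (34.1%). With the named exceptions kept in there were 103 of 307 (33.6%). Over all genes tested 6.76% were lower. Lists with more lower than higher calls numbered 8 to 12 of 12, drawn from members that mostly lay below 0. The highest median of any 10 Mb window stayed below 0 in every fit (-0.24 to -0.01). Deviations from the group mean had correlations of -0.04, -0.18 and -0.28 between same-numbered libraries. Between differently numbered libraries they ran from -0.20 to 0.25. With 3 libraries a group, this cannot tell whether the numbers pair libraries. With the replicate block members had 21 lower and 4 higher calls, and all genes 447 and 567. With 3 libraries a group, small changes cannot be told from the spread.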
